A study of Mus musculus with 20 samples.

Results

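The mitochondrial ribosomal proteins were followed by 47 probes of 43 genes on a mouse array of 15245 probes, whose single symbols name 7117 genes. A probe belonged to the group when its only gene symbol was Mrpl or Mrps followed by a digit and when it had a value on at least 2 arrays in every brain region. The array held 51 probes of 46 genes with such a symbol. The 4 left out were probes of Mrps9 and Mrps17 that had no value on any array, and probes of Mrpl52 and Mrpl32 with values on 11 and 8 arrays. Of the 47 probes, 34 read 31 genes of the Mrpl series and 13 read 12 genes of the Mrps series. Mrps7, Mrpl48, Mrpl50 and Mrpl23 had a pair of probes each.

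The mitochondrial ribosome translates the few proteins that the mitochondrial genome encodes, all of them core subunits of the oxidative phosphorylation complexes. Its RNAs come from the mitochondrial genome, while all of its proteins are encoded in the nucleus, made on cytosolic ribosomes and imported. The large subunit, built from the Mrpl series, forms the peptide bond. The small subunit, built mostly from the Mrps series, holds the messenger RNA and its decoding centre. Neurons depend on this supply because synaptic transmission and ion pumping draw heavily on mitochondrial ATP.

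The 20 arrays compared amplified RNA of mouse brain with a null mutation with amplified pooled RNA of wild-type brain from the same region, on 2 channels of one array. Cortex, hippocampus, cerebellum and brain stem-diencephalon had 5 arrays each, 3 with null RNA in channel 1 and 2 dye swaps with null RNA in channel 2. The sources used here do not give strain, age, sex or the number of mice per RNA. Arrays of a region with one number were averaged, which left 13 replicates, 4 of them in cortex and 3 in every other region. Nothing in the labels says that the numbers are different mice, so the p-values measure only how far these samples spread, and that spread may be technical. Channel 1 arrays of number 1 did differ from those of numbers 2 and 3 in the Y-linked gene Eif2s3y in every region, as given below. Repeats of one RNA would not differ in this way. The mean of the regions counted replicates of one number in different regions as independent. Its SE and p-values therefore do not allow for a source that regions may share. The fourth cortex replicate is a swapped array without a number and may repeat another cortex RNA.

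Values are log ratios, read as log2 and given as null over wild type. The sources used here give neither the log base nor the order of the channels, so the direction is likely only, and the opposite order would turn every sign. The only control is the wild-type pool, whose own spread does not enter the tests. A ratio shows no level, so the labelled tissues could not be checked against the level of their markers. These are bulk tissues, in which fewer cells of a type and less RNA per cell cannot be told apart.

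The arrays held 6793 to 13963 probes with a value, and precision is limited by how many arrays there are. One swapped array lay nearly unchanged under both cerebellum number 1 and brain stem-diencephalon number 2. Its copies correlated at 0.9952 over 6748 probes, against 0.7432 for the next closest of the 190 pairs, and results are also given without it. The channel 1 arrays of number 1 stood apart as well. On them the Y-linked gene Eif2s3y lay between -1.36 and -0.65, and the number 1 swaps of hippocampus and brain stem-diencephalon gave -0.99 and -0.44. The other 13 arrays with a value, the repeated array included, lay between 0.93 and 1.71. Under cerebellum number 1 the repeated array gave 1.71, against -0.77 on the channel 1 array of that number, with which it was averaged. In the main fit it also entered brain stem-diencephalon number 2, so it counted in 2 replicates. Of the 8 vessel markers 3 were measured, all called lower in the mean of the regions, between -0.53 and -0.25. The other marker lists had medians of -0.31 for choroid plexus (Ttr alone, called lower), 0.27 for erythrocytes (1 of 2 called higher), -0.35 for neurons (1 of 2 called lower), 0.12 for microglia, -0.04 for oligodendrocytes and 0.0021 for astrocytes, without a call in the last 3. The parts of these differences in the results below were not tested, except where values without an array are given.

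Averaged over the 4 regions, 10 of the 47 probes passed the threshold of an adjusted p of 0.05, or 21.3%, with 6 higher and 4 lower in the null mutants. Of all 12338 probes tested, 21.1% passed, 11.2% higher and 9.9% lower, so the share among the mitochondrial ribosomal proteins lay near the background. The lower genes were Mrpl36, Mrpl12, Mrpl4 and Mrpl48, and the higher genes were Mrpl3, Mrpl50, Mrps25, Mrpl10, Mrpl30 and Mrpl2. Their changes were small, from 1.12-fold to 1.29-fold. Unadjusted p was under 0.05 for 17 of the 47 probes, or 36.2%, against 36.0% of all probes.

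**Figure D1:**
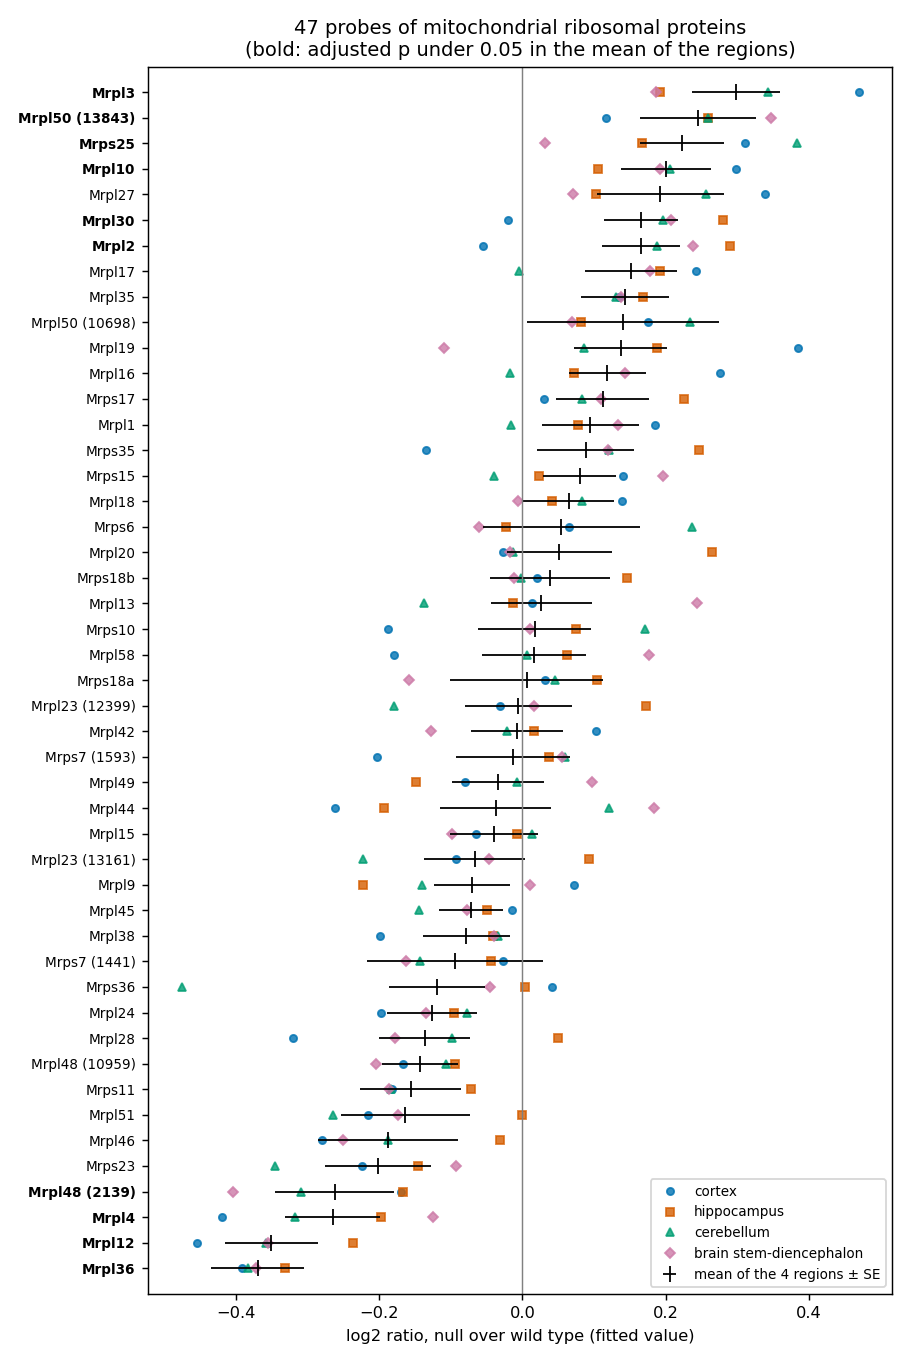
Fitted log2 ratio of null over wild type (x axis) for the 47 probes (y axis, ordered by the mean), with a coloured symbol per region and a black tick with a bar for the mean of the 4 regions ± SE; 3 or 4 replicates per region before missing values. The 10 probes in bold passed the threshold in the mean, and no probe reached 0.5 in either direction in any region.

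Of the 10 calls, those of Mrpl36, Mrpl12 and Mrpl3 were kept in each of the 13 fits without a replicate and in the 11 other settings run. The 250 bases before the start of these genes, and of Mrpl10, the stalk partner of Mrpl12 that moved the opposite way, are shown to let their promoters be set side by side. They come from RefSeq on GRCm38.p6 and lie on the plus strand, for Mrpl36 at chr13:73330759-73331008, for Mrpl12 at chr11:120484387-120484636, for Mrpl3 at chr9:105053018-105053267 and for Mrpl10 at chr11:97041332-97041581. Capitals mark CGCCATCTT in Mrpl36, the YY1 motif AAGATGGCG read on the other strand, and the ETS motif CCGGAAG in Mrpl3. The Mrpl12 and Mrpl10 windows held neither of these motifs nor the NRF1 motif.
Mrpl36: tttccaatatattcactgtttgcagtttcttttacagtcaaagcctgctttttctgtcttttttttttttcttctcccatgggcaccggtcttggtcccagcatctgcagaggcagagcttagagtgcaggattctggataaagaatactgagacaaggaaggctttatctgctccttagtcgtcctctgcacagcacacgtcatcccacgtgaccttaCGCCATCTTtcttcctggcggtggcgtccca
Mrpl12: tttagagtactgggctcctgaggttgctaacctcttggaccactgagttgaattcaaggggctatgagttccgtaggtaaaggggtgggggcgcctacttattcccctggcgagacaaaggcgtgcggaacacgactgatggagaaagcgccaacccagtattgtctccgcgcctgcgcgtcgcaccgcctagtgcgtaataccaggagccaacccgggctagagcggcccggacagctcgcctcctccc
Mrpl3: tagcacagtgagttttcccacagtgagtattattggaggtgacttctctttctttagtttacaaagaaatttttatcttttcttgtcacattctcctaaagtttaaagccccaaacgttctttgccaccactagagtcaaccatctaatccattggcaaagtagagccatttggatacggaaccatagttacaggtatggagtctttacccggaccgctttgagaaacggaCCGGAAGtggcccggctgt
Mrpl10: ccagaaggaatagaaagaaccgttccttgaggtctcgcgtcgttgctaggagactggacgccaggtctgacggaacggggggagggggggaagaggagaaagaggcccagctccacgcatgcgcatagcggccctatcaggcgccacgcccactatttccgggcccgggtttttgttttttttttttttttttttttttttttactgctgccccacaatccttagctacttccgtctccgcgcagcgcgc

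Mrpl36 encodes a small zinc-binding protein that joins the large subunit late. Its probe, 9188, lay below 0 on all 19 arrays with a value. The cortex arrays gave -0.12, -0.46, -0.49 and -0.43, and the hippocampus arrays -0.35, -0.47, -0.20, -0.15 and -0.46. In cerebellum the values were -0.27, -0.48, -0.35, -0.25 and -0.45, and in brain stem-diencephalon -0.49, -0.31, -0.39, -0.24 and -0.25. Arrays of both orientations and of all regions overlapped in their values. The mean of the regions was -0.37 ± 0.06 (SE, n = 12 replicates, limma's adjusted p = 0.00257), and the 4 regional ratios lay between -0.39 and -0.33. Without the repeated array the mean was -0.42 (adjusted p = 0.00516).

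The stalk of the large subunit recruits translation factors to the ribosome. Its proteins Mrpl10 and Mrpl12 had means of opposite sign, but the Mrpl10 call was lost without the repeated array. Mrpl12, probe 2217, which is also known to bind the mitochondrial RNA polymerase, fell by 0.35 ± 0.07 in the mean (SE, n = 13, adjusted p = 0.00297). Its swapped arrays were mostly the lowest, at -0.71 and -0.99 in cortex, -0.61 and -0.59 in cerebellum, -0.61 and -0.61 in brain stem-diencephalon, and -0.32 and -0.65 in hippocampus. The channel 1 arrays of numbers 2 and 3 lay between -0.32 and 0.08. The channel 1 arrays of number 1 gave 0.35 in cerebellum, 0.27 in cortex, 0.20 in brain stem-diencephalon and 0.17 in hippocampus, above every other array. Of the arrays below them, 1 of hippocampus, at 0.08, was also above 0. All swapped arrays lay below 0, so the fall came mostly from arrays with null RNA in channel 2. Without the channel 1 arrays of number 1 the mean was -0.38 (adjusted p = 7.98e-05).

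Mrpl10, probe 3429, which anchors the Mrpl12 copies to the ribosome, rose by 0.20 ± 0.06 (SE, n = 13, adjusted p = 0.0362). Its arrays ranged from -0.23 to 0.73, with a median of 0.12 and 14 of 19 above 0. The repeated array gave the highest values, 0.73 under both regions, and the channel 1 arrays of number 1 lay between -0.23 and 0.05. Without the repeated array the mean was 0.14 (limma's adjusted p = 0.143). The call was kept in 6 of the 13 fits without a replicate, and over these and the 11 other settings the adjusted p ranged from 0.00599 to 0.151.

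Mrpl2, Mrpl3, Mrpl4, Mrpl16 and Mrpl27 lie in the body of the large subunit around its catalytic centre. Mrpl3, probe 13962, was above 0 on 18 of 19 arrays. Cortex gave 0.38, 0.47, 0.77 and 0.21, hippocampus 0.07, 0.52, 0.36, -0.21 and 0.39, and cerebellum 0.12, 0.48, 0.39, 0.49 and 0.53. The brain stem-diencephalon arrays gave 0.08, 0.27, 0.26, 0.09 and 0.50. The only array below 0 was the number 1 swap of hippocampus, and the channel 1 arrays of number 1 were low, between 0.07 and 0.12. The mean was 0.30 ± 0.06 (SE, n = 12, adjusted p = 0.00592), and 0.25 without the repeated array (adjusted p = 0.0405).

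Mrpl4, probe 13897, lay below 0 on 17 of 20 arrays, from -0.58 to 0.28 with a median of -0.28. Its values above 0 came from the channel 1 arrays of number 1, at 0.02 in cortex, 0.28 in hippocampus and 0.12 in brain stem-diencephalon. The mean was -0.26 ± 0.07 (SE, n = 13, adjusted p = 0.0134). The call was lost without cortex replicate 4, with a mean of -0.25 (adjusted p = 0.0831), and without hippocampus replicate 2, with a mean of -0.22 (adjusted p = 0.0501).

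Mrpl2, probe 11738, rose by 0.16 ± 0.05 (SE, n = 13, adjusted p = 0.0455), with 14 of 17 arrays above 0. Its cortex arrays were divided, at 0.39, 0.48 and 0.15 in channel 1 and -0.53 on the unnumbered swap, while hippocampus lay above 0 on all 5 arrays. Without the repeated array the mean was 0.11 (adjusted p = 0.222). Mrpl16 was above 0 on 15 of 18 arrays with a mean of 0.12 ± 0.05 (n = 13, adjusted p = 0.126), and Mrpl27 had a mean of 0.19 ± 0.09 (n = 12, adjusted p = 0.137). These proteins of the ribosome's core thus held called probes in both directions.

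Mrpl48, Mrpl46, Mrpl38 and Mrpl18 belong to the central protuberance, the crown of the large subunit that faces the small one. Mrpl48 was lower at probe 2139, with a mean of -0.26 ± 0.08 (SE, n = 12, adjusted p = 0.0401). This rested in part on the repeated array, which gave -1.69 under brain stem-diencephalon and no value under cerebellum. The other arrays ranged down to -0.57, and without the repeated array the mean was -0.19 (adjusted p = 0.0711). The second Mrpl48 probe, 10959, had a mean of -0.14 ± 0.05 (n = 13, adjusted p = 0.0691), the same direction without passing the threshold. Mrpl46 lay at -0.19 ± 0.10 (n = 13, adjusted p = 0.184), Mrpl38 at -0.08 and Mrpl18 at 0.06.

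Mrpl50 was higher at probe 13843, with a mean of 0.25 ± 0.08 (SE, n = 13, adjusted p = 0.0454). The repeated array gave 1.45 under both regions, while the other 17 values lay between -0.22 and 0.48. Without that array the mean was 0.10 (adjusted p = 0.307), and the second Mrpl50 probe, 10698, had a mean of 0.14 ± 0.13 (n = 12, adjusted p = 0.487). Mrpl30, probe 9832, rose by 0.17 ± 0.05 (SE, n = 12, adjusted p = 0.037). It was above 0 on 16 of 18 arrays, but its call was kept in 3 of the 13 fits without a replicate, and without the repeated array the mean was 0.16 (adjusted p = 0.078).

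**Figure D2:**
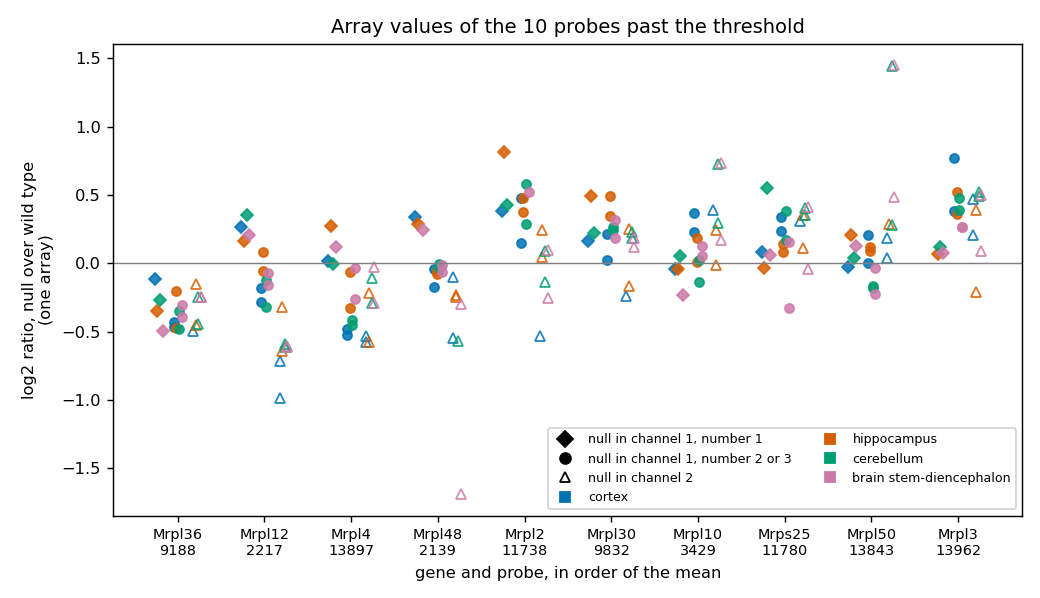
Log2 ratio of null over wild type on each array (y axis) for the 10 probes past the threshold in the mean of the regions (x axis, from lowest to highest); colours are regions, diamonds are channel 1 arrays of number 1, filled circles other channel 1 arrays and open triangles swapped arrays. Mrpl36 lies below 0 on all 19 arrays, the diamonds of Mrpl12 lie above its other arrays, and the repeated array stands alone at 1.45 in Mrpl50.

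Around the exit tunnel, where the new chain leaves the ribosome, Mrpl23, Mrpl24, Mrpl44 and Mrpl45 held no call. Mrpl45, which tethers the ribosome to the inner membrane, had a mean of -0.07 ± 0.04 (n = 13, adjusted p = 0.269). Its channel 1 arrays were above 0 on 11 of 12 arrays and its 8 swapped arrays all below 0, so its sign followed the channel of the null RNA. Mrpl24 lay at -0.13 ± 0.06 (n = 13, adjusted p = 0.17). The Mrpl23 probes, 12399 and 13161, gave -0.01 and -0.07. Mrpl44, related to RNase III enzymes, lay at -0.04.

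The remaining 13 probes of the large subunit, of Mrpl1, Mrpl9, Mrpl13, Mrpl15, Mrpl17, Mrpl19, Mrpl20, Mrpl28, Mrpl35, Mrpl42, Mrpl49, Mrpl51 and Mrpl58, held no call in the mean. They ran from Mrpl51 at -0.16 ± 0.09 (n = 10, adjusted p = 0.216) to Mrpl17 at 0.15 ± 0.06 (n = 12, adjusted p = 0.111). Mrpl58, a peptidyl-tRNA hydrolase that rescues stalled ribosomes, lay at 0.02.

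In the Mrps series, Mrps36 included, 1 of 13 probes was called in the mean, or 7.69%, against 21.1% of all probes tested. In the Mrpl series 9 of 34 were called, or 26.5%. The called Mrps gene was Mrps25 at probe 11780. It rose by 0.22 ± 0.06 (SE, n = 13, adjusted p = 0.0165) and was above 0 on 16 of 19 arrays. By region the ratio was highest in cerebellum at 0.38 and cortex at 0.31, followed by hippocampus at 0.17 and brain stem-diencephalon at 0.03, and without the repeated array the mean was 0.20 (adjusted p = 0.0714). Outside the group, 3 probes named for both Mrps25 and Nr2c2 had medians over arrays of 0.27, 0.20 and 0.04.

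The other Mrps probes ran from Mrps23 at -0.20 ± 0.07 (n = 13, limma's adjusted p = 0.0672) and Mrps11 at -0.16 ± 0.07 (n = 13, adjusted p = 0.13) to Mrps17 at 0.11 ± 0.06 (n = 13, adjusted p = 0.231). The Mrps7 probes, 1441 and 1593, gave -0.09 and -0.01. In Mrps6 the sign followed the channel of the null RNA. Its 12 arrays with null RNA in channel 1 lay between -0.77 and 0.14, 11 of them below 0, while its 4 swapped arrays lay between 0.25 and 0.42. With the orientation in the model its mean was 0.05 ± 0.11 (n = 12, adjusted p = 0.758).

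Region by region, few probes passed. In cortex 2 of 47 were called, or 4.26%, against 2.72% of all probes tested, and 11 had an unadjusted p under 0.05, or 23.4%, against 24.6% of all probes. They were Mrpl12, which fell by 0.45 ± 0.11 (SE, n = 4, limma's adjusted p = 0.0423), and Mrpl3, which rose by 0.47 ± 0.11 (SE, n = 3, limma's adjusted p = 0.0466). Next to them, Mrpl19 at 0.38 and Mrpl27 at 0.34 were highest, and Mrpl4 at -0.42 and Mrpl36 at -0.39 lowest. The Mrpl27 ratio leaned on the orientation term, since its cortex arrays with a value were all channel 1. They gave -0.0031, 0.05 and 0.327, each below the fitted 0.34. Cortex counts moved with single replicates, from 10 without cortex replicate 1 and 4 without hippocampus replicate 1 to 1 or 0 without each of the other 11. The share of all probes called in cortex in these fits is not given here, so the moves are not read as particular to the members.

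In hippocampus limma called 0 of 47, against 0.43% of all probes, with 4 (8.51%) under an unadjusted p of 0.05, against 13.4% of all probes. The highest regional ratios were Mrpl2 at 0.29, Mrpl30 at 0.28 and Mrpl20 at 0.26, and the lowest were Mrpl36 at -0.33, Mrpl12 at -0.24 and Mrpl9 at -0.22. In cerebellum limma called 0 of 47, against 2.25%, with 7 (14.9%) under an unadjusted p of 0.05, against 2468 of all 12338 probes. Mrps25 at 0.38, Mrpl3 at 0.34 and Mrpl50 at 0.26 were highest there, and Mrps36 at -0.47, Mrpl36 at -0.38 and Mrpl12 at -0.36 lowest. Without the repeated array the cerebellum ratio of this Mrpl50 probe, 13843, was 0.03 and that of Mrpl3 0.23. The highest fitted ratios were then Mrps6 at 0.41, Mrps25 at 0.40 and the Mrpl50 probe 10698 at 0.23, with the same 3 genes lowest. For Mrps6 and probe 10698 no swapped cerebellum array with a value was left, so their fitted ratios leaned on the orientation term. Their remaining cerebellum arrays showed no such rise, at 0.14, -0.31 and -0.28 for Mrps6 and 0.0098 and -0.0103 for probe 10698. In brain stem-diencephalon limma called 0 of 47, against 0.3%, with 6 (12.8%) under an unadjusted p of 0.05, against 13.3% of all probes. Mrpl50 at 0.35, Mrpl13 at 0.24 and Mrpl2 at 0.24 were highest, and Mrpl48 at -0.40, Mrpl36 at -0.37 and Mrpl12 at -0.35 lowest. These ends also rested on the repeated array, since without it Mrpl50 probe 13843 lay at 0.07, Mrpl2 at 0.13 and Mrpl48 probe 2139 at -0.19. Mrpl13 at 0.28, Mrpl35 at 0.25 and Mrpl1 at 0.22 were then highest, and Mrpl36 at -0.45, Mrpl12 at -0.42 and the Mrpl48 probe 10959 at -0.29 lowest.

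The F test of equal ratios over the regions called 0 of 47 probes and 0% of all probes tested. Its unadjusted p was under 0.05 for 1 of the 47, Mrps36, and for 533 of all probes. Mrps36, now known as a part of the 2-oxoglutarate dehydrogenase complex, had a fitted -0.47 in cerebellum (n = 2) and between -0.04 and 0.04 elsewhere (unadjusted p = 0.0482 by limma's F test). Its replicates elsewhere were spread. They lay at -0.22, 0.05 and 0.08 in cortex, 0.045 and -0.26 in hippocampus, and 0.34, -0.40 and -0.30 in brain stem-diencephalon. Mrpl44 lay at -0.26 in cortex and -0.19 in hippocampus, against 0.12 in cerebellum and 0.18 in brain stem-diencephalon. Mrpl19 went from 0.38 in cortex to -0.11 in brain stem-diencephalon. No difference between regions passed the threshold.

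As a group the probes were centred near 0. Their median was highest in hippocampus at 0.04 and lowest in cortex at -0.03, with -0.01 in both cerebellum and brain stem-diencephalon, and 0.01 in the mean, where 24 lay above 0 and 23 below. These medians were unstable in sign outside hippocampus: without 1 replicate the cortex median ranged from -0.09 to 0.04, above 0 without cortex replicate 3 or 4, and those of cerebellum and brain stem-diencephalon also crossed 0. The median of all probes tested was 0.01 in the mean and between 0.005 and 0.0159 in the regions. The SD over the 47 means was 0.15, against 0.21 over all probes. The ratio had one sign in all 4 regions for 21 of 47 probes, or 44.7%, against 49.1% of all probes.

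On single arrays the median over the group ranged from -0.16 on the unnumbered cortex swap to 0.12 on the channel 1 array of number 1 in hippocampus. In each region that channel 1 array of number 1 had the highest median of the 5 arrays, between 0.07 and 0.12. Of the 45 probes with at least 3 such values, 5, or 11.1%, had all of them outside the range of the remaining arrays, against 5.23% of 10667 probes. They were Mrpl12, Mrpl4, Mrpl46, the Mrpl48 probe 2139 and the Mrpl23 probe 12399, all higher there. Without these 4 arrays 16 of the 47 probes were called in the mean, including the 10 above, against 34.5% of all probes.

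**Figure D3:**
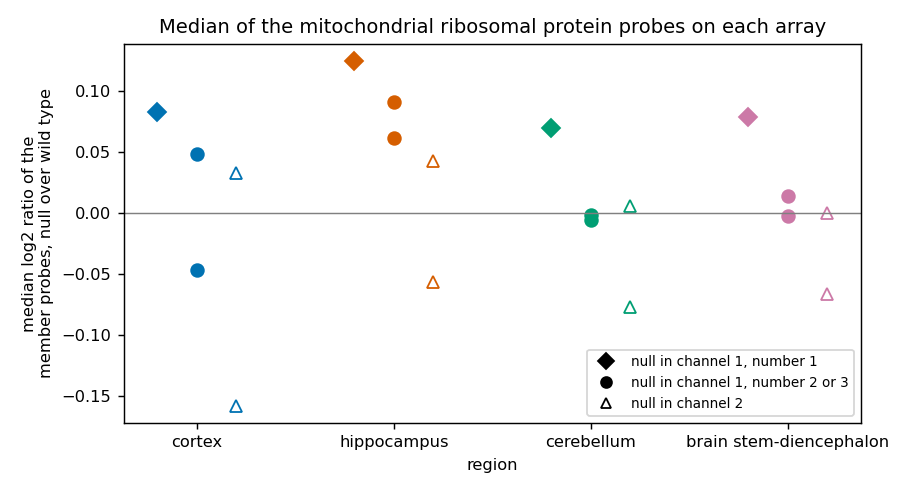
Median log2 ratio of null over wild type over the mitochondrial ribosomal protein probes on each array (y axis), by region (x axis); diamonds are channel 1 arrays of number 1, filled circles other channel 1 arrays and open triangles swapped arrays. In each region the diamond is the highest, and the swap of cortex without a number is the lowest at -0.16.

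Removing the repeated array left 4 calls of the 10, Mrpl36, Mrpl12, Mrpl4 and Mrpl3, with 13.5% of all probes called. Leaving out 1 replicate also lowered the count by over 1.5 times in several cases. It was 4 without hippocampus replicate 2 or brain stem-diencephalon replicate 2, and 5 without cortex replicate 4 or cerebellum replicate 2. It was 6 without cortex replicate 2, hippocampus replicate 3, cerebellum replicate 1 or brain stem-diencephalon replicate 3. The background fell in the same fits, to between 8.06% and 18.3% of all probes.

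The proteins of the cytosolic ribosome were centred higher. Their 159 probes of 69 genes had a median of 0.16 in the mean of the regions, with 139 above 0, 56 called higher and 0 called lower, or 35.2%, against 11.2% of all probes called higher and 9.9% lower. The 68 probes of 54 oxidative phosphorylation genes had a median of -0.01, with 4 called higher and 7 lower, or 16.2%, against 21.1% of all probes in either direction. The difference between these lists and the mitochondrial ribosomal proteins was not tested.

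**Figure D4:**
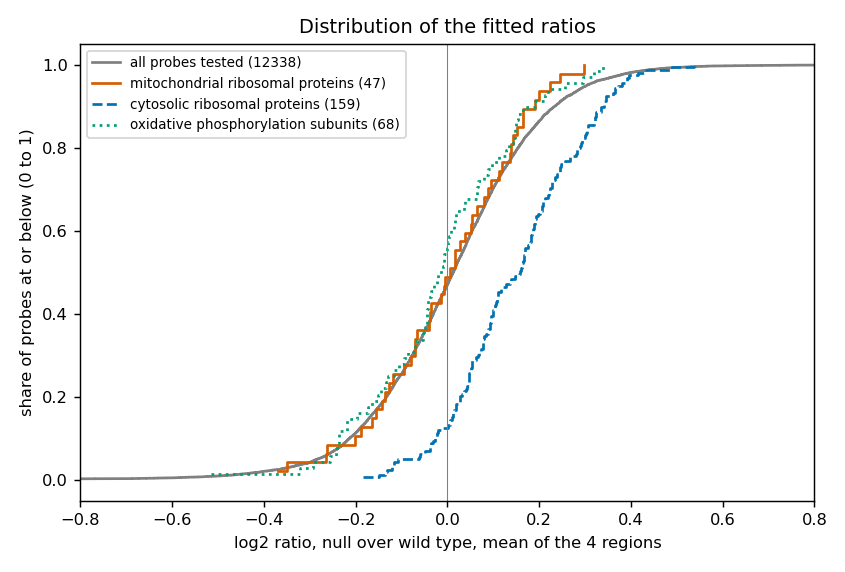
Share of probes (y axis, 0 to 1) at or below each log2 ratio of null over wild type in the mean of the 4 regions (x axis) for 47 probes of mitochondrial ribosomal proteins, 159 of cytosolic ribosomal proteins, 68 of oxidative phosphorylation subunits and all 12338 tested. The mitochondrial ribosomal proteins follow the curve of all probes with a median of 0.01, and the cytosolic ones lie to the right with a median of 0.16.

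The genes that build and serve the mitochondrial ribosome were mixed in direction. Of the 2 probes of subunits under other symbols, 0 were called in the mean. In each other list below, between 15.4% and 25.0% of the probes were called, near the 21.1% of all probes. Among 12 probes of 8 translation factor genes, 1 was higher and 1 lower in the mean. The lower one was Tufm, the elongation factor that brings aminoacyl-tRNA to the ribosome, at -0.27 ± 0.08 (SE, n = 13, adjusted p = 0.0225). The higher one was 1 of 4 probes of Guf1, an elongation factor that can move the ribosome backwards, at 0.18 ± 0.05 (adjusted p = 0.0277).

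Of 12 probes of 10 assembly genes, 1 was higher and 2 lower. Mtg1, a GTPase of the large subunit's assembly, rose by 0.24 ± 0.05 (SE, n = 13, adjusted p = 0.00582). Eral1, a chaperone of the small subunit's RNA, fell by 0.19 ± 0.05 (SE, n = 12, adjusted p = 0.021). Noa1, another GTPase needed for assembly, fell by 0.53 ± 0.09 at probe 7115 (SE, n = 13, adjusted p = 0.00225), but its other probe, 5445, lay at 0.08 (adjusted p = 0.596).

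Among 13 probes of 11 mitochondrial aminoacyl-tRNA synthetases, Tars2, for threonine, fell by 0.33 ± 0.07 (SE, n = 13, adjusted p = 0.00408), and 1 of 2 Rars2 probes, for arginine, rose by 0.16. Among 12 probes for transcription and RNA handling, 3 were higher and 0 lower. They were Pnpt1, an RNA-degrading enzyme, at 0.27, Ssbp1, which binds single-stranded mitochondrial DNA, at 0.28, and Trmt10c, a subunit of mitochondrial RNase P, at 0.30 on 1 of its 2 probes. Of 34 probes for import and chaperones, 3 were higher, all of the outer membrane receptor Tomm20 at 0.24 to 0.39, and 4 lower, of Tomm34, Timm44, Tomm5 and Pmpca. Of 6 probes of regulators, 1 was called, 1 of 3 for Nrf1, at 0.19. Dap3, a small-subunit protein under another symbol, had a mean of 0.09 (n = 8, adjusted p = 0.46).

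RefSeq promoter windows of 300 bases, 250 before and 50 after the start, were matched for 37 of the 43 genes. They were searched on both strands for exact copies of the motifs, because NRF1, ETS factors and YY1 are known regulators of nuclear genes for mitochondria. The YY1 motif lay in 5 of the 37 genes, or 13.5%, against 2.14% of 17491 protein-coding genes. The ETS motif lay in 10, or 27.0%, against 12.9%, and the NRF1 motif in 1, or 2.7%, against 1.47%. Each motif holds the letters CG, and the member windows were richer in CG, with a median count of 20.5 against 13.0. Their median share of G and C was 57.7% against 56.3%. The part of base composition in the motif shares was not tested. Of the 4 genes printed above, Mrpl36 and Mrpl3 held an exact copy of a motif in this window and Mrpl12 and Mrpl10 did not.

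A start of another gene on the opposite strand lay within 1000 bases for 12 of the genes, and for 9 of them the neighbour was measured. Mrpl46 and Mrps11 start 42 bases apart, and both were below 0 in the mean, at -0.19 and -0.16, without passing the threshold. Mrpl48 overlaps the start of Rab6a, a regulator of Golgi traffic, and while Mrpl48 was lower, Rab6a rose by 0.19 ± 0.06 (adjusted p = 0.0293). Mrpl49 lay at -0.03, and the 4 probes of its neighbour Fau, which encodes a cytosolic ribosomal protein, lay between 0.14 and 0.32. Of these 4, 2 were called. Mrpl51 lay at -0.16, while 1 of 2 probes of its neighbour Ncapd2, a condensin subunit, rose by 0.21 ± 0.05 (adjusted p = 0.0118). Gga3, a Golgi adaptor beside Mrps7, fell by 0.29 ± 0.10 (adjusted p = 0.0479). No probe of Tcp1, Klc4 or Eme1, beside Mrpl18, Mrpl2 and Mrpl27, was called.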

How the data were processed

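The deposited table gave 1 log ratio per probe and array, taken as log2. Its array medians lay near 0, and the sources used here do not give the authors' processing steps. Each array was centred on its median, dye swaps were multiplied by -1, and arrays of a region with one number were averaged. A linear model per probe held 4 region terms and the dye orientation, with variances moderated by limma 3.58.1 in R 4.3.3. Ratios and their mean were tested against 0, and regions by an F test. Benjamini-Hochberg adjustment ran over the 12338 probes tested, with a threshold of 0.05; of 12356 probes with a value on 2 or more arrays per region, 18 could not be estimated. The fit was tested on simulated data.

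Symbols came from the platform annotation (9604 probes with a single symbol, 213 with several, 5428 with none), updated by Entrez ID for 9496. Sequences came from RefSeq on GRCm38.p6. Named probes were those called anywhere, the 8 highest and 8 lowest in the mean, the 3 highest and 3 lowest per region, the 4 smallest F test p-values and genes with a pair of probes. The members and lists were chosen with earlier results of these data known. Marker lists covered choroid plexus, erythrocytes, vessels, microglia, oligodendrocytes, astrocytes and neurons, with 1, 2, 3, 3, 1, 3 and 2 probes measured. Alternatives changed the centring, scale, orientation term, moderation, filter, averaging, arrays used, block and channel order. The mutated gene is not reported here.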

Additional observations from a re-analysis of the deposited data

Results flagged for a closer look

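In Mrpl4, cortex replicate 1 stood apart at 0.0153, while the other cortex replicates lay between -0.57 and -0.48. Chance sets a sample apart this way in about 1 in 20 groups.

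Mrpl13 lay below 0 in both cerebellum replicates with a value and above 0 in all 3 of brain stem-diencephalon, a fitted difference of -0.38. Mrpl17 lay above 0 in all hippocampus and below 0 in all cerebellum replicates, a fitted difference of 0.20, and its cerebellum minus brain stem-diencephalon difference was -0.18. These regional differences were picked by sign alone, each pair was not tested, and the F test over the regions did not call them (limma's adjusted p = 1 for both genes).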

How the results depend on the processing

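Counts of called probes were 2 in cortex, 0 in the other regions and 10 in the mean. In cortex the count was 0 with arrays scaled to one spread, with no orientation term and with a variance trend, 1 without the repeated array, 8 without the channel 1 arrays of number 1, and 5 with arrays as single samples. In cerebellum it was 4 without the channel 1 arrays of number 1 and 4 with arrays as single samples. In the mean it was 4 without the repeated array, against 13.5% of all probes called, and 16 without the channel 1 arrays of number 1, against 34.5%. With the replicate block the counts were 10 in cortex, 4 in cerebellum, 1 in brain stem-diencephalon and 17 in the mean, where 8 of the 10 calls were shared. Mrpl30, at 0.16 (adjusted p = 0.0693), and Mrpl50 probe 13843, at 0.22 (adjusted p = 0.0678), were not shared. For the regional counts in these settings and for the replicate block, the share of all probes called is not given. Those counts are therefore not read as a result about the members. Replicates of one number in different regions correlated at -0.185 to 0.737 over 18 pairs (median 0.244), and those of different numbers at -0.53 to 0.478 over 45 pairs (median -0.137). Same-numbered samples thus tended to deviate together, but not in every pair and not by any label, so the numbers were not taken to pair the samples. The main fit counted them as independent, so the SE and adjusted p of the mean may be too small. Without 1 replicate the count ranged from 0 to 10 in cortex and from 4 to 12 in the mean, where 8.06% to 25.6% of all probes were called. The hippocampus median was 0.0234 without the repeated array, 0.0607 without the channel 1 arrays of number 1, and 0.0034 to 0.0676 without 1 replicate; the cerebellum median was -0.0487 to 0.0002 without 1 replicate. The causes of these shifts were not tested. Reading channel 2 over channel 1 turns every sign: the hippocampus median becomes -0.0414, Mrpl36 0.37, Mrpl12 0.35 (cortex 0.45), Mrpl4 0.26, Mrpl48 0.26, Mrpl3 -0.30 (cortex -0.47), Mrpl50 -0.25, Mrps25 -0.22, Mrpl10 -0.20, Mrpl30 -0.17 and Mrpl2 -0.16. The F test called 0 members in every setting run. Signal over background was not analysed here.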

Other observations

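By distance over the 4 regional ratios, the named probes nearest to the medians of the mitochondrial ribosomal proteins were those of Gja1, an astrocyte gap junction protein, and Tefm, a mitochondrial transcription elongation factor. Their distances were 0.0209 and 0.0233 on the log2 scale.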
